A study of Mus musculus with 12 samples.

Results

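Mouse B cells labelled as depleted of Jmjd2c were compared with control B cells after 3 days of culture with T cell help signals, using 4 of the 12 arrays of the series. The members were chosen by title and day alone. They are 2 arrays titled as Jmjd2c-depleted at day 3 and 2 arrays titled as control at day 3. Both groups came from the spleen of C57BL/6 mice carrying the transgene Tg(IghelMD4)4Ccg, whose B cells carry a receptor that binds hen egg lysozyme (HEL). Cells positive for B220 were isolated on magnetic beads and cultured with an antibody against CD40, interleukin-21 (IL-21) and HEL, so that the controls had the same stimulation. The Jmjd2c group received shJmjd2c virus (siJmjd2c in the treatment text) and the control group shcontrol virus (sicontrol in the treatment text). Of the other arrays of the series, Jmjd2a-labelled cells of day 3, Jmjd2c-labelled cells of day 1 and control cells of day 1 serve below as points of comparison. No age, infection rate or selection of infected cells is given in the labels used here, so a group may hold cells that took up no virus. The titles number the replicates as biological but name no separate animals or cultures, so the p-values measure only the spread between arrays. That spread was estimated within the groups of all 12 arrays, not from the 4 arrays alone, and was taken as equal in all groups. The control arrays of day 3 differed more from each other, with a pooled replicate SD of 0.259, against 0.115 to 0.157 in the other groups. Standard errors, intervals and p-values of comparisons with that group therefore tend to be too small.

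Jmjd2c (Kdm4c) is an oxygen-dependent enzyme that removes methyl groups from lysines of histone H3, mainly the H3K9 mark of silent chromatin. When CD40, the B cell receptor and the IL-21 receptor are engaged together, B cells grow, divide and either take up germinal centre functions or become antibody-secreting plasma cells. Plasma cell formation is driven by the transcription factors Blimp1 (Prdm1), Irf4 and Xbp1, while Pax5, Bach2 and Bcl6 maintain the B cell programme, and Myc drives growth. RNA was read on Affymetrix mouse genome arrays, and every level below is a deposited log2 value. A difference is Jmjd2c minus control on that scale, given with its standard error (SE).

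The transcript of the targeted gene was not lower beyond the replicate spread. Kdm4c read 7.81 and 7.78 on the Jmjd2c arrays, against 7.96 and 7.56 on the control arrays. Both Jmjd2c values lay between the 2 control values, and the difference was 0.03 ± 0.12 (95% interval -0.23 to 0.29, limma adjusted p = 0.91). Without control replicate 2 the difference turned to -0.17 at an adjusted p = 0.21, and with quantile normalization to -0.07. Without control replicate 1 it was 0.23 (95% interval 0.06 to 0.41, adjusted p = 0.051). Whether the probe set reads the part of the transcript that RNA interference cuts was not tested, and protein was not read on these arrays. The groups are called by their labels. The related demethylase Kdm4a read 7.94 and 8 on the Jmjd2c arrays and 8.2 and 8.17 on the control arrays, a difference of -0.22 ± 0.09 that did not pass (adjusted p = 0.14) but did with quantile normalization (-0.3, adjusted p = 0.048).

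Markers of B cells were bright in both groups. Ptprc, which encodes CD45 and its B220 form, read 13.1 and 13.07 on the Jmjd2c arrays and 13.19 and 13.14 on the control arrays. Ms4a1, which encodes CD20, read 11.2 on both Jmjd2c arrays, against 11.59 and 11.43 on the control arrays. Neither passed (adjusted p = 0.12 and 0.066). Control replicate 2 stood apart from the other 11 arrays. Its interquartile range was 3.09, against 3.38 to 3.63 elsewhere, its hybridisation controls read 11.34, against 10.3 to 10.83, and the mean over its probe sets for 18S ribosomal RNA was 10.73, against 11.73 to 12.73. The pooled replicate SD was 0.117 in the Jmjd2c group and 0.259 in the control group. Taken over all probe sets (which do not count as replicates), the Jmjd2c arrays had a mean Pearson r of 0.9876 with the control arrays of day 3 and of 0.9954 with the control arrays of day 1. They had an r of 0.9976 with each other and of 0.9964 with the Jmjd2a arrays of day 3.

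Differences between the groups were spread over many genes. Of 45037 probe sets tested in limma, 6452 passed at an adjusted p under 0.05 (14.3%), of which 4181 were higher (9.28%) and 2271 lower (5.04%) on the Jmjd2c arrays. Represented by their brightest probe set, 2203 of 18193 genes were higher (12.1%) and 1311 lower (7.21%), and the median difference of all genes was -0.011. A difference of 2-fold or more was reached by 307 of the higher and 324 of the lower probe sets. A fit that leaves out 1 array of a group of 2 takes no replicate spread from that group. Without a control array of day 3, the p-values omit the spread of the day 3 controls. The larger counts of these fits are therefore no sign of firmer differences. The number of calls depended on single arrays. It was 7223 (16.0%) without control replicate 2, with 3808 higher (8.46%) and 3415 lower (7.58%), and among genes 21.1% were then called, 10.8% higher and 10.3% lower. It was 12578 without control replicate 1, 3654 without Jmjd2c replicate 1 and 2941 without Jmjd2c replicate 2. Of the 6452 calls, 5145 (79.7%) were also made without control replicate 2, where they were 71.2% of that fit's calls. In all 4 fits that each left out 1 of these arrays, 2735 probe sets were called the same way, 1782 of them higher and 953 lower.

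In each of the 12 largest rises the Jmjd2c mean lay nearer to the mean of the control arrays of day 1 than to that of day 3. Pcp4, a small calmodulin-binding protein, read 8.5 and 8.59 on the Jmjd2c arrays, against 4.03 and 4.78 on the control arrays, and was 17.6-fold higher (4.14 ± 0.18, adjusted p = 4.2e-07). Rgs13, a brake on G protein signalling known from germinal centre B cells, read 8.2 and 8.34, against 5.45 and 4.93 on the control arrays, 8.46-fold higher (3.08 ± 0.18, adjusted p = 1.8e-06). Hspa1b, the inducible Hsp70 chaperone, read 9.31 and 8.14, against 5.68 and 5.59 on the control arrays, 8.55-fold higher (3.1 ± 0.51, adjusted p = 0.0013). The groups did not overlap for any of these, as was so for 52.8% of all genes and 47.3% of all probe sets, but the Jmjd2c replicates of Hspa1b lay further apart from each other than those of Pcp4 or Rgs13.

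Further rises between 1.95 and 2.66 on the log2 scale fell to genes of several roles. Serpinb1a, an inhibitor of granule proteases, read 11.68 and 11.74 on the Jmjd2c arrays, against 9.36 and 8.74 on the control arrays (2.66 ± 0.13, adjusted p = 9.8e-07). Maf, a transcription factor of the basic leucine zipper class, read 8.23 and 8.29, against 5.96 and 5.34 on the control arrays (2.61 ± 0.15, adjusted p = 1.8e-06). Pigr, the receptor that carries polymeric immunoglobulin across epithelia, read 7.36 and 7.27, against 4.95 and 4.37 on the control arrays (2.65 ± 0.17, adjusted p = 3.1e-06). In these genes control replicate 2 was the lowest array of the 4, below control replicate 1 by more than the 2 Jmjd2c arrays differed. Xrcc5, the Ku80 subunit that binds broken DNA ends, was higher by 2.48 ± 0.16, and Smad1, a signal carrier of bone morphogenetic proteins, by 2.24 ± 0.21. Spred2, an inhibitor of Ras signalling, was higher by 2.18 ± 0.17, Rasgef1b, an exchange factor for small GTPases, by 2.01 ± 0.13, and Mapk12, the p38 gamma kinase, by 1.95 ± 0.17. The unnamed transcript 2010204K13Rik was higher by 2.27 ± 0.12. The other Spred2 probe sets did not show this rise, with a median difference of -0.0.

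**Figure D1:**
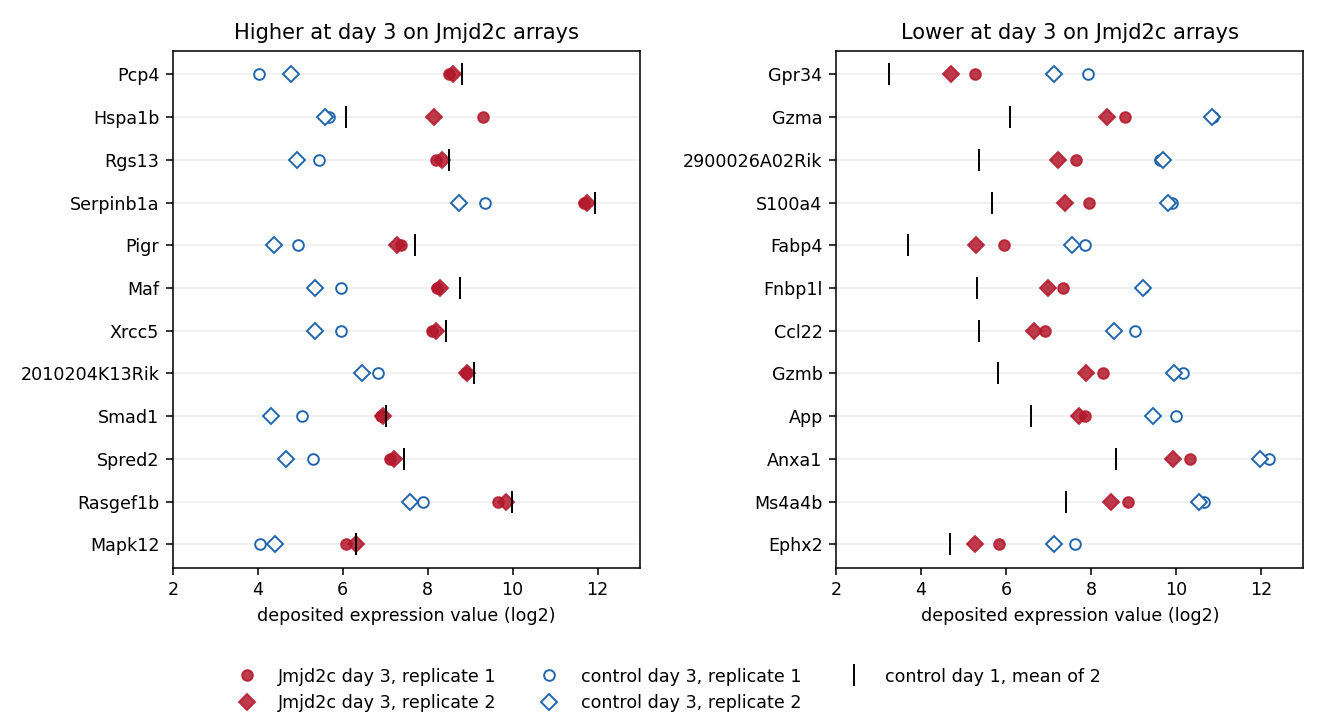
Deposited log2 values of the 12 largest rises (left) and 12 largest falls (right), ordered by size, on the 2 Jmjd2c arrays (filled) and the 2 control arrays (open) of day 3, with the mean of the 2 control arrays of day 1 as a bar. In 23 of the 24 genes the Jmjd2c mean lies between the means of both controls, the exception being Hspa1b.

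The largest falls included cytotoxic granule, calcium-binding and chemokine genes. Gzma, a granule serine protease of killer lymphocytes, read 8.79 and 8.37 on the Jmjd2c arrays, against 10.88 and 10.85 on the control arrays, 4.89-fold lower (-2.29 ± 0.27, adjusted p = 0.00015). Gzmb, a granule protease that IL-21 can induce in B cells, read 8.29 and 7.88, against 10.17 and 9.95 on the control arrays, 3.95-fold lower (-1.98 ± 0.16, adjusted p = 8.4e-06). S100a4, a calcium-binding protein of motile cells, read 7.94 and 7.39, against 9.9 and 9.82 on the control arrays, 4.58-fold lower (-2.19 ± 0.2, adjusted p = 2.1e-05). The groups did not overlap, the 2 control arrays stood closer together than the 2 Jmjd2c arrays, and Jmjd2c replicate 2 was the lower of these in each gene.

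Gpr34, a receptor of lysophosphatidylserine, had the largest fall but also the widest spread, at 5.26 and 4.7 on the Jmjd2c arrays, against 7.92 and 7.13 on the control arrays (-2.54 ± 0.4, adjusted p = 0.00098). Ccl22, a chemokine that attracts T cells, read 6.92 and 6.66, against 9.03 and 8.54 on the control arrays (-2 ± 0.21, adjusted p = 5.2e-05). Anxa1, an annexin that binds phospholipid, read 10.34 and 9.94, against 12.2 and 11.98 on the control arrays (-1.95 ± 0.19, adjusted p = 4e-05). The groups of these genes did not overlap. Fabp4, a fatty acid carrier, was lower by 2.08 ± 0.33 log2 units, Fnbp1l, a membrane-bending regulator of actin, by 2.06 ± 0.14 and App, the amyloid precursor protein, by 1.95 ± 0.22. Ms4a4b, a membrane protein related to CD20, was lower by 1.92 ± 0.14, Ephx2, the soluble epoxide hydrolase, by 1.83 ± 0.24, and the unnamed transcript 2900026A02Rik by 2.23 ± 0.18. All 24 genes, chosen because they passed both with and without control replicate 2, also passed in the same direction on the Jmjd2a arrays, a comparison that shares the control arrays.

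Genes of cell division were lower throughout. Of 28 measured genes of mitosis and the spindle, 28 were lower and 0 higher, with a median difference of -0.94 (range -1.48 to -0.46), against 7.21% of all genes lower. Ccnb2, cyclin B2, which activates Cdk1 at entry into mitosis, read 9.52 and 9.35 on the Jmjd2c arrays, against 10.82 and 11.01 on the control arrays, 2.8-fold lower (-1.48 ± 0.09, adjusted p = 1.9e-06). Mki67, the Ki-67 protein that coats mitotic chromosomes, read 10.61 and 10.49, against 11.52 and 11.53 on the control arrays, 1.96-fold lower (-0.97 ± 0.06, adjusted p = 2.2e-06). Cenpa, the histone of centromeres, was lower by 1.37 ± 0.08 and Ube2c, which tags cyclins for destruction, by 1.31 ± 0.09. All 28 were also lower without control replicate 2, at a median of -1.04, and 26 were lower when either of the 2 Jmjd2c arrays was left out.

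The promoters of the first 2 of these genes are shown because CCAAT boxes and the cell cycle homology element TTTGAA are known promoter elements of mitotic genes. They are the 250 bases before the RefSeq start (GRCm38.p6, gene strand, written 5′ to 3′), with the motifs, read on both strands, in capitals. Ccnb2 lies on the minus strand at chr9:70421555-70421804 and Mki67 on the minus strand at chr7:135716380-135716629.
Ccnb2: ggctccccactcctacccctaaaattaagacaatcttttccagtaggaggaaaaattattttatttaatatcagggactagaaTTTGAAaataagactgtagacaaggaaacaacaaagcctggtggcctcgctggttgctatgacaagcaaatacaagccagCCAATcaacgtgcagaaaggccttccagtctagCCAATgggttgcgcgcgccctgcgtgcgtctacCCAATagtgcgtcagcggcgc
Mki67: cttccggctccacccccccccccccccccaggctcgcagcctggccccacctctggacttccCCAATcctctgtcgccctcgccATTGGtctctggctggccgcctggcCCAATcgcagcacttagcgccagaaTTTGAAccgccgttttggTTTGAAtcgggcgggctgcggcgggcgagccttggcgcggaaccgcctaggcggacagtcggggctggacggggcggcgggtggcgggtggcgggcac
The table of promoters held 24 for 23 of the 28 mitosis genes. CCAAT was in 19 of the 24 (79.2%), against 34.7% of 18109 promoters of measured genes. TTTGAA was in 9 of the 24 (37.5%), against 11.9%. A match describes the letters of this window and is no evidence of a bound factor.

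Genes of DNA replication moved the other way for the most part. Of 28 measured genes of replication and the G1/S transition, 17 were higher and 4 lower, with a median of 0.28, against 12.1% of all genes higher. Cdt1, which loads the replicative helicase, read 10.95 and 10.98 on the Jmjd2c arrays, against 10.03 and 10.05 on the control arrays (0.93 ± 0.05, adjusted p = 1.1e-06). Mcm2 and Mcm4, subunits of that helicase, were higher by 0.99 ± 0.1 and 0.47 ± 0.04, and Gins1, a part of the active helicase, by 0.84 ± 0.11. Without control replicate 2 the counts were 14 higher and 5 lower, and without either of the Jmjd2c arrays in turn 12 higher and 1 lower.

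The list of Myc targets and ribosome biogenesis rose as a whole, where 12.1% of all genes were higher and 7.21% lower. All 27 measured members were higher, with a median of 0.72 (range 0.15 to 1.22), and all 27 were higher without control replicate 2, at a median of 0.7. Myc itself read 10.12 and 10.15 on the Jmjd2c arrays, against 9.15 and 8.97 on the control arrays, 2.11-fold higher (1.08 ± 0.1, adjusted p = 2e-05). Srm, the spermidine synthase, read 11.57 and 11.63, against 10.43 and 10.56 on the control arrays (1.1 ± 0.06, adjusted p = 9.8e-07). Odc1, the first enzyme of polyamine synthesis, was higher by 0.72 ± 0.05, Gnl3, the nucleolar GTPase nucleostemin, by 0.77 ± 0.05 and Hspd1, the mitochondrial chaperonin, by 0.6 ± 0.04. Among D cyclins and the Myc-Max network, 6 of 14 were higher and 2 lower (median 0.21). Ccnd2, cyclin D2, which drives cells through G1, read 11.86 and 11.9, against 10.97 and 11.12 on the control arrays (0.84 ± 0.06, adjusted p = 3.2e-06). Its partner kinase Cdk6 was higher by 0.76 ± 0.08, while Mxd4, an antagonist of Myc, was lower by 1.29 ± 0.16 log2 units.

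Myc binds the E-box CACGTG, and the promoter of the list member Cdk4, the kinase partner of D cyclins, is shown for its 4 copies, in capitals. The 250 bases before its start lie on the plus strand at chr10:127063285-127063534.
Cdk4: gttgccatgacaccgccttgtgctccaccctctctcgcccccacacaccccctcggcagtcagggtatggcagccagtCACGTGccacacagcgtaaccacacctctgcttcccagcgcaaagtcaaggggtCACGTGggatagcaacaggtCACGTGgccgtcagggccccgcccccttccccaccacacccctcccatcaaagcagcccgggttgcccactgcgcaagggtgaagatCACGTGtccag
The Myc list had 24 promoters for 20 of its 27 genes, of which 3 held CACGTG (12.5%), against 7.38% of the 18109 promoters. Whether these shares differ was not tested, and a match is no evidence that Myc is bound there.

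**Figure D2:**
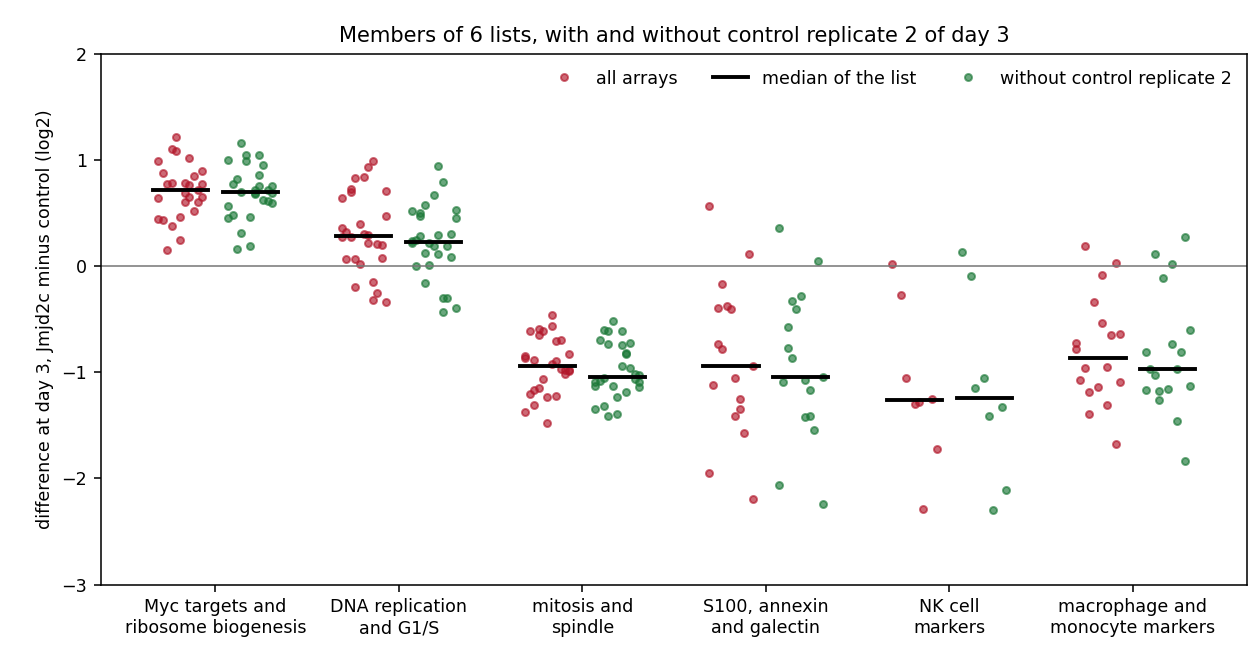
Difference at day 3 (log2, Jmjd2c minus control) of each measured member of 6 lists, with all arrays (left in each pair) and without control replicate 2 (right), with the median of the list as a bar. The Myc list lies above 0 and the mitosis list below 0 in both settings, while the other lists hold members on both sides.

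Metabolic and chaperone genes were higher more often than lower, as were all genes (12.1% and 7.21%). In glycolysis and lactate transport 6 of 13 measured genes were higher and 0 lower (median 0.19). Slc16a1, the lactate transporter MCT1, read 10.69 and 10.74 on the Jmjd2c arrays, against 9.48 on both control arrays, 2.36-fold higher (1.24 ± 0.06, adjusted p = 8e-07). Hk2, the hexokinase that commits glucose to the pathway, was higher by 0.91 ± 0.07, Pfkp, a phosphofructokinase, by 0.59 ± 0.06 and Ldha, lactate dehydrogenase, by 0.43 ± 0.04. In cholesterol synthesis 9 of 14 were higher and 1 lower (median 0.38), with Cyp51 and Sc5d, enzymes of the late steps, at 0.66 ± 0.07 and 0.72 ± 0.08, Idi1, an isomerase of the early steps, at 0.41 ± 0.05, and the sterol sensor partner Insig1 at 0.38 ± 0.06. In the Atf4 response and amino acid supply 8 of 20 were higher and 0 lower (median 0.15). Atf4, the transcription factor itself, was higher by 0.47 ± 0.05, the serine pathway enzymes Shmt2 and Psph by 0.83 ± 0.07 and 0.5 ± 0.07, and the amino acid transporter Slc7a5 by 0.6 ± 0.07. Without control replicate 1 the count in this list was 7 higher and 3 lower.

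Heat shock proteins and chaperonins were higher in 12 of 16 and lower in 0 (median 0.3), against 12.1% of all genes higher and 7.21% lower. Beside Hspa1b, the second inducible Hsp70 gene Hspa1a differed by 1.53 ± 0.42 (adjusted p = 0.03), Hsph1, a partner of Hsp70, by 0.64 ± 0.13 and Hspd1 by 0.6 ± 0.04. The call of Hspa1a ended without Jmjd2c replicate 1, control replicate 1 or control replicate 2, and that of Hsph1 without Jmjd2c replicate 2. Hsp90aa1, an Hsp90 form, was higher by 0.3 ± 0.04 and the chaperonin subunits Cct8 and Cct2 at 0.3 ± 0.04 and 0.23 ± 0.03. Housekeeping lists moved little. In oxidative phosphorylation 1 of 19 was higher and 1 lower (median 0.01), and among cytosolic ribosomal proteins 1 of 14 was higher and 1 lower (median 0.0). Without control replicate 2, Jmjd2c replicate 1 or Jmjd2c replicate 2 both lists had 0 higher and 0 lower members in limma, and without control replicate 1 oxidative phosphorylation had 4 higher and the ribosomal proteins 2 higher and 1 lower. In lipid handling 4 of 17 were higher and 5 lower (median -0.26). Fasn, the fatty acid synthase, and Pltp, a phospholipid transfer protein, were higher by 0.67 ± 0.07 and 0.87 ± 0.07, and the lipid droplet protein Plin2 and the fatty acid carrier Fabp5 were lower by 1.29 ± 0.11 and 1.15 ± 0.11 log2 units. Without Jmjd2c replicate 2 this list had 3 higher and 3 lower members.

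Plasma cell genes were lower on balance, though the regulators and the surface marker did not move together. Of 20 measured plasma cell regulators and products, 10 were lower and 2 higher, with a median of -0.36, against 7.21% of all genes lower and 12.1% higher. Xbp1, the transcription factor of the secretory programme, read 11.92 and 11.89 on the Jmjd2c arrays, against 12.52 and 12.59 on the control arrays, 1.57-fold lower (-0.65 ± 0.05, adjusted p = 1.4e-05). Jchain, the chain that joins IgM and IgA polymers, read 11.75 and 11.63, against 12.54 and 12.51 on the control arrays, 1.78-fold lower (-0.83 ± 0.15, adjusted p = 0.0028). Mzb1, a chaperone of immunoglobulin assembly, was lower by 0.8 ± 0.07 and Ighm, the IgM heavy chain, by 0.36 ± 0.04 log2 units.

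Sdc1, syndecan 1 or CD138, by which plasma cells are sorted, rose. It read 10.44 and 10.46 on the Jmjd2c arrays, against 9.43 and 9.32 on the control arrays, 2.1-fold higher (1.07 ± 0.09, adjusted p = 1.1e-05). Prdm1, which encodes Blimp1, read 7.41 and 7.4, against 7.81 and 7.34 on the control arrays, a difference of -0.17 ± 0.16 that did not pass (95% interval -0.51 to 0.16, adjusted p = 0.56). It was -0.41 without control replicate 2 (adjusted p = 0.059) and 0.06 without control replicate 1. Irf4 read 9.15 and 9.2, against 9.47 and 9.31 on the control arrays, -0.21 ± 0.1, and did not pass either (adjusted p = 0.22). Leaving out Jmjd2c replicate 2 left 5 lower and 1 higher members of this list, and leaving out Jmjd2c replicate 1 left 6 lower and 2 higher.

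The lists of B cell identity and MHC class II are read against the shares of all genes, 12.1% higher and 7.21% lower. Among mature B cell identity genes 4 of 21 were higher and 6 lower (median -0.17). Bach2, a repressor of Prdm1, read 11.42 and 11.46 on the Jmjd2c arrays, against 10.93 and 10.99 on the control arrays (0.48 ± 0.05, adjusted p = 5.6e-05). Pax5, the keeper of B cell identity, read 6.91 and 7.16, against 7.07 and 6.99 on the control arrays, with overlapping groups (0.0 ± 0.14, adjusted p = 1.0). Cd72, an inhibitory receptor, was lower by 0.63 ± 0.09, Cd79b, a signalling chain of the B cell receptor, by 0.6 ± 0.1 and the adaptor Blnk by 0.32 ± 0.05 log2 units. Of genes of MHC class II presentation 1 of 11 was higher and 3 lower (median -0.16), among them the costimulatory Cd86, lower by 0.93 ± 0.1 log2 units. Without Jmjd2c replicate 2 the identity list had 2 higher and 4 lower members and the MHC class II list 0 higher and 1 lower.

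Germinal centre and class switch genes were higher in 7 of 12 and lower in 1 (median 0.42), against 12.1% of all genes higher and 7.21% lower. Ung, the glycosylase that removes uracil from switching DNA, read 9.57 and 9.65 on the Jmjd2c arrays, against 8.33 and 8.38 on the control arrays, 2.39-fold higher (1.26 ± 0.08, adjusted p = 3.1e-06). Msh6, a mismatch repair protein, was higher by 0.82 ± 0.1. Bcl6, the repressor that defines germinal centre B cells, read 8.75 and 8.76, against 8.36 and 8.23 on the control arrays (0.46 ± 0.09, adjusted p = 0.0046). Its call ended without Jmjd2c replicate 2, at an adjusted p = 0.053. Fas, the death receptor of germinal centre cells, read 7.8 and 7.68, against 9.36 and 8.64 on the control arrays, 2.39-fold lower (-1.26 ± 0.18, adjusted p = 0.0006). The count without Jmjd2c replicate 2 was 4 higher and 1 lower.

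Protein folding and secretion genes were higher more often than lower, as were all genes (12.1% higher and 7.21% lower). In the unfolded protein response 11 of 25 were higher and 3 lower (median 0.14), with the folding chaperones Hspa5, Canx and Manf at 0.3 ± 0.04, 0.31 ± 0.04 and 0.33 ± 0.05, and Edem1, which sends misfolded glycoproteins to degradation, at -0.69 ± 0.06. In secretory transport 9 of 23 were higher and 1 lower (median 0.02). The translocon partner Ssr2 was higher by 0.58 ± 0.07, and the transport receptor Lman1 and the coat protein Sec23b by 0.5 ± 0.07 each, while Sec11c, the signal peptidase subunit, was lower by 0.84 ± 0.07 log2 units. Leaving out Jmjd2c replicate 2 reduced the unfolded protein response count to 3 higher and 2 lower, and leaving out either Jmjd2c array reduced the secretory count to 4 or 5 higher and 1 lower. Without control replicate 2 the lower members were 5 and 3 in these lists.

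**Figure D3:**
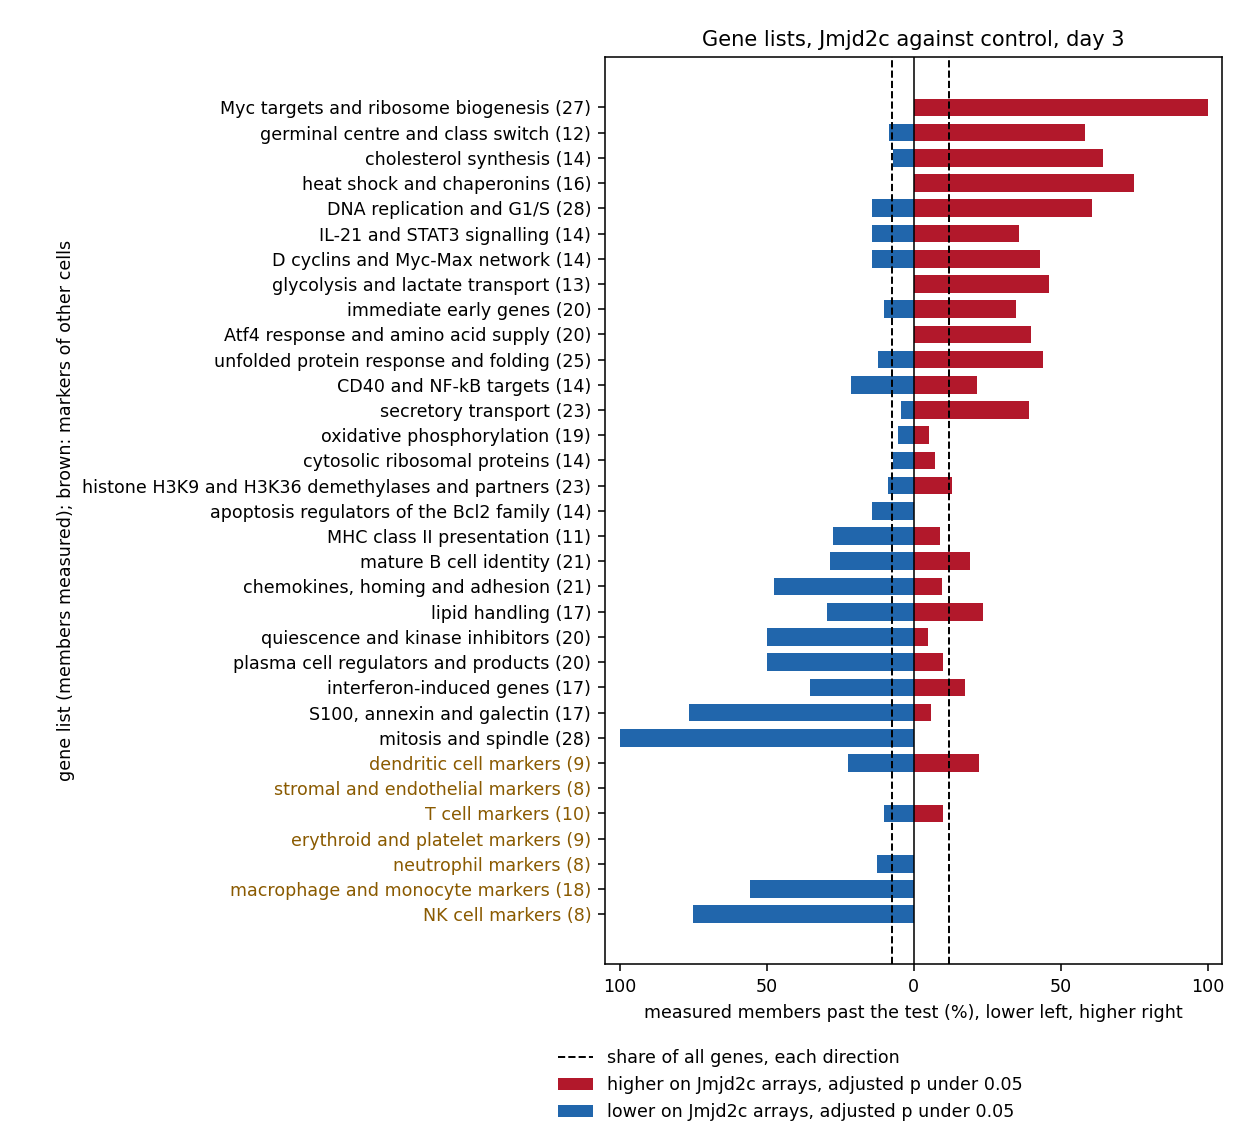
Share of the measured members of each list that passed (limma, adjusted p under 0.05), higher to the right and lower to the left, ordered by median difference within the programme lists (black) and the marker lists of other cells (brown), with the shares of all genes (12.1% higher and 7.21% lower) as dashed lines. All members pass in the Myc list (higher) and in the mitosis list (lower), and the NK cell and macrophage marker lists have lower members and no higher ones.

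Of 20 measured genes of quiescence and kinase inhibition, 10 were lower and 1 higher (median -0.3), against 7.21% of all genes lower and 12.1% higher. The higher one was Klf2, a transcription factor of resting lymphocytes (1.45 ± 0.27, adjusted p = 0.003). Cdkn3, a phosphatase that acts on cell cycle kinases, read 7.76 and 7.53 on the Jmjd2c arrays, against 9.24 and 9.07 on the control arrays, 2.85-fold lower (-1.51 ± 0.11, adjusted p = 5.5e-06). Ccng2, a cyclin of arrested cells, was lower by 1.24 ± 0.18 and the antiproliferative Btg1 by 0.51 ± 0.05 log2 units. Cdkn1b, the kinase inhibitor p27, read 8.62 and 8.69, against 9.6 and 9.09 on the control arrays (-0.69 ± 0.15, adjusted p = 0.0076). Cdkn2c, the kinase inhibitor p18, read 8.59 and 8.56, against 9.29 and 8.83 on the control arrays (-0.49 ± 0.14, adjusted p = 0.031). Neither call was stable. Cdkn1b did not pass without Jmjd2c replicate 1 (adjusted p = 0.069) or replicate 2 (adjusted p = 0.052), and was -0.43 without control replicate 1. Cdkn2c passed neither without Jmjd2c replicate 1 or 2 (adjusted p = 0.13 and 0.17) nor without control replicate 1 (adjusted p = 0.095). Without either of the Jmjd2c arrays in turn the list had 4 lower and 1 higher members, and without control replicate 1 it had 7 lower and 3 higher.

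Immediate early genes, which respond to signals within the hour, were higher in 7 of 20 and lower in 2 (median 0.16). Nr4a3, an orphan nuclear receptor, read 7.8 and 7.84 on the Jmjd2c arrays, against 6.56 and 6.28 on the control arrays, 2.63-fold higher (1.4 ± 0.13, adjusted p = 2.1e-05), but its other probe sets had a median of -0.06. Fos, a subunit of AP-1, read 7.29 and 7.08, against 5.8 and 5.82 on the control arrays (1.37 ± 0.16, adjusted p = 0.0001). Ier2 was higher by 1.15 ± 0.1 and Egr2, a zinc finger factor induced by the antigen receptor, by 0.95 ± 0.08. The groups of these 4 genes did not overlap, as was so for 52.8% of all genes. Without Jmjd2c replicate 2 this list had 5 higher and 0 lower members. In CD40 and NF-kB targets the directions were split, with 3 of 14 higher and 3 lower (median 0.03), against 12.1% and 7.21% of all genes. Rel, an NF-kB subunit, read 10.02 and 10.07, against 9 and 8.69 on the control arrays (1.2 ± 0.09, adjusted p = 6.7e-06). Beside Ccl22, the cytokine subunit Ebi3 and the adaptor Traf1 were lower by 1.35 ± 0.15 and 0.6 ± 0.09 log2 units, and Nfkbia, the inhibitor that NF-kB induces, differed by 0.09 ± 0.03 and did not pass (adjusted p = 0.11). Without Jmjd2c replicate 2 the count was 1 higher and 3 lower, and without control replicate 1 it was 5 higher and 3 lower.

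In IL-21 and STAT3 signalling 5 of 14 were higher and 2 lower (median 0.24). Stat3, the main transducer of IL-21, read 11.05 and 11.03 on the Jmjd2c arrays, against 10.58 and 10.09 on the control arrays (0.7 ± 0.14, adjusted p = 0.0044), and was higher by 0.45 without control replicate 2. Its feedback inhibitor Socs3 was higher by 0.24 ± 0.05. The largest difference in this list went the other way, in Gzmb (-1.98 ± 0.16), given above. Without either of the Jmjd2c arrays in turn the count was 2 higher and 1 lower, and without control replicate 1 it was 8 higher and 1 lower. Interferon-induced genes were lower in 6 of 17 and higher in 3 (median -0.45), against 7.21% of all genes lower and 12.1% higher. The counts were 9 lower and 2 higher without control replicate 2 (median -0.6), and 6 lower and 4 higher without control replicate 1 (median -0.14). Cxcl10, a chemokine, read 7.96 and 7.48, against 9.38 and 9.69 on the control arrays, 3.52-fold lower (-1.82 ± 0.22, adjusted p = 0.00017). The guanylate-binding proteins Gbp2 and Gbp3 were lower by 1.71 ± 0.11 and 1.49 ± 0.12, and the transcription factor Irf1 by 0.8 ± 0.09 log2 units.

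Chemokines, homing and adhesion genes were lower in 10 of 21 and higher in 2 (median -0.2). Cxcr3, a receptor of the Cxcl10 group, read 8.44 and 8.27 on the Jmjd2c arrays, against 10.14 and 9.99 on the control arrays, 3.27-fold lower (-1.71 ± 0.14, adjusted p = 8.8e-06). Itgal, the alpha chain of the integrin LFA-1, was lower by 0.87 ± 0.07 log2 units, and Gpr183, an oxysterol receptor that places B cells in the follicle, was higher by 0.95 ± 0.07. The S100, annexin and galectin list was lower in 13 of 17 and higher in 1 (median -0.94), against 7.21% of all genes lower, and the higher call was not made without control replicate 2 or either Jmjd2c array. Beside S100a4, Anxa2 and Anxa4 were lower by 1.25 ± 0.09 and 0.94 ± 0.09 and the galectin Lgals1 by 1.12 ± 0.09 log2 units. Of 14 apoptosis regulators of the Bcl2 family, 0 were higher and 2 lower (median -0.06), with 2 higher and 2 lower without control replicate 1 and 1 lower without Jmjd2c replicate 2. Bcl2l11, the death activator Bim, read 10.69 and 10.55, against 12.21 and 11.82 on the control arrays, 2.63-fold lower (-1.4 ± 0.11, adjusted p = 6.9e-06).

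Of 23 measured histone demethylases and partners, 3 were higher and 2 lower (median -0.03), near the shares of all genes (12.1% higher and 7.21% lower). Kdm6b, which removes the H3K27 mark, read 8.7 and 8.68 on the Jmjd2c arrays, against 7.7 and 7.75 on the control arrays, 1.96-fold higher (0.97 ± 0.09, adjusted p = 2e-05). Wdr5, a core subunit of H3K4 methyltransferase complexes, read 9.2 on both Jmjd2c arrays, against 8.81 and 8.65 on the control arrays (0.47 ± 0.08, adjusted p = 0.0018). The groups did not overlap in these 2 genes, as in 52.8% of all genes. The remaining 3 calls ended without Jmjd2c replicate 2, where the list had 2 higher and 0 lower members, and without control replicate 1 it had 5 higher and 1 lower.

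Markers of macrophages and of NK cells were lower on the Jmjd2c arrays together with the falls above, against 7.21% of all genes lower. In these bulk samples fewer cells of a type and less RNA per cell cannot be told apart. Of 18 macrophage and monocyte markers, 10 were lower and 0 higher (median -0.87), and 5 were lower without either of the Jmjd2c arrays in turn. Their mean level was 6.18 and 6.12 on the Jmjd2c arrays, against 6.97 and 6.91 on the control arrays, and 13 and 14 of the 18 lay above the median probe set level of 5.22. Vcam1, an adhesion molecule of splenic macrophages and stroma, read 5.09 and 4.59, against 6.68 and 6.36 on the control arrays (-1.68 ± 0.25, adjusted p = 0.00059). Cd68, a lysosomal protein of macrophages, was lower by 1.14 ± 0.21, Mpeg1, a pore-forming protein, by 0.96 ± 0.15 and the protease Ctsd by 0.65 ± 0.11 log2 units. Of 8 NK cell markers, 6 were lower and 0 higher (median -1.27). Their mean level was 5.84 and 5.69, against 6.93 and 6.89 on the control arrays. Beside Gzma, the granule proteins Nkg7 and Prf1 were lower by 1.25 ± 0.15 and 1.3 ± 0.19 and the receptor Klra8 by 1.05 ± 0.17 log2 units, though the other Prf1 probe sets had a median of 0.3.

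The other marker lists are read against the same shares, 12.1% of all genes higher and 7.21% lower. Of 9 dendritic cell markers 2 were higher and 2 lower, with the cytokine receptor Flt3 at 7.2 and 6.86 on the Jmjd2c arrays, against 8.86 and 8.47 on the control arrays (-1.64 ± 0.19, adjusted p = 0.00013), and 1 was higher without either of the Jmjd2c arrays in turn. Of 10 T cell markers 1 was higher and 1 lower, with 4 lower without control replicate 2 and 0 calls without Jmjd2c replicate 2. Of 8 neutrophil markers 0 were higher and 1 lower, a call that was not made without Jmjd2c replicate 1, Jmjd2c replicate 2 or control replicate 2. The 9 erythroid and platelet markers had 0 calls in limma on all arrays and in each of the 4 fits that left out an array. The 8 stromal and endothelial markers had 0 calls on all arrays and 2 lower without control replicate 1. The part that such cells have in the falls of granzymes, S100 proteins, annexins, chemokines and interferon-induced genes was not tested.

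A direct comparison of the Jmjd2c and Jmjd2a arrays of day 3 gave no call. Of 45037 probe sets 0 passed in limma (0% of those tested), with 2571 at an unadjusted p under 0.05 and a smallest adjusted p of 0.76. The median size of the difference was 0.1 log2 units, and its 95% interval reached 0.29 to either side at the median, so differences of that size were not detectable with 2 arrays a group. In the largest rises the Jmjd2c arrays differed from the Jmjd2a arrays by -0.29 to 0.06, and in the largest falls by -0.37 to 0.16. For Xbp1 the interval of the difference was -0.09 to 0.15, for Myc -0.41 to 0.01, for Sdc1 -0.23 to 0.15 and for Mki67 -0.13 to 0.12. The count was 66 without control replicate 2, 26 with array weights and 1086 when the 4 arrays were fitted alone, where the spread rests on 2 residual degrees of freedom.

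Set beside each other against the control arrays that both share, the Jmjd2c arrays had 27 Myc list members higher at a median of 0.72 and the Jmjd2a arrays 27 at a median of 0.75. The mitosis list had 28 lower at a median of -0.94 on the Jmjd2c arrays and 28 lower at a median of -0.96 on the Jmjd2a arrays. The plasma cell list had 10 lower and 2 higher members with either label, both at a median of -0.36. Among all genes 16.0% were higher and 9.04% lower with the Jmjd2a label. Over all probe sets that label had 9351 calls against control (20.8%), and 7759 without control replicate 2.

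Cdkn2a, which encodes the kinase inhibitor p16 and the p53 activator Arf, was singled out after its values were seen. It read 5.97 and 6.12 on the Jmjd2c arrays, 4.88 and 4.55 on the Jmjd2a arrays and 6.43 and 7.54 on the control arrays of day 3. The Jmjd2c arrays lay between the other 2 groups without overlap. Against control the difference was -0.94 ± 0.27 (adjusted p = 0.037). That call ended without control replicate 2 (-0.39, adjusted p = 0.18) and without Jmjd2c replicate 1 or 2 (adjusted p = 0.19 and 0.13). Against the Jmjd2a arrays the difference was 1.33, with a 95% interval of 0.73 to 1.92 and an adjusted p over all probe sets of 0.85.

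The difference from control changed between day 1 and day 3 for 7879 of 45037 probe sets (17.5%), tested as the day 3 difference minus the day 1 difference. It shifted upward in 4800 (10.7%) and downward in 3079 (6.84%), and the count was 12912 without control replicate 1 of day 3. Pcp4 differed from control by -0.39 at day 1 and by 4.14 at day 3, a change of 4.53 ± 0.25 (adjusted p = 1.2e-06). Rgs13 differed by -0.5 and 3.08 on these days, Pigr by -0.39 and 2.65, and Xrcc5 by -0.32 and 2.48. Macrophage genes moved the opposite way. Vcam1 differed by 6.82 at day 1 and -1.68 at day 3, a change of -8.5 ± 0.35 (adjusted p = 1.5e-07). Slc40a1, the iron exporter, differed by 4.85 and -1.41, Csf1r, the receptor of macrophage growth factor, by 4.84 and -1.07, Mrc1, the mannose receptor, by 4.44 and -1.37, and C1qa, a complement subunit, by 4.46 and -0.95. The day 3 differences of these 4 genes were less stable. C1qa did not pass at day 3 (adjusted p = 0.064), and the call ended for Slc40a1 without Jmjd2c replicate 2, for Csf1r without Jmjd2c replicate 1, Jmjd2c replicate 2 or control replicate 2, and for Mrc1 without Jmjd2c replicate 1, Jmjd2c replicate 2 or control replicate 1. Fcer2a, the IgE receptor CD23, differed by 5.29 at day 1 and by 0.0 at day 3, and Gzma and Gpr34 by 3.16 and 2.88 at day 1 before their falls at day 3.

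**Figure D4:**
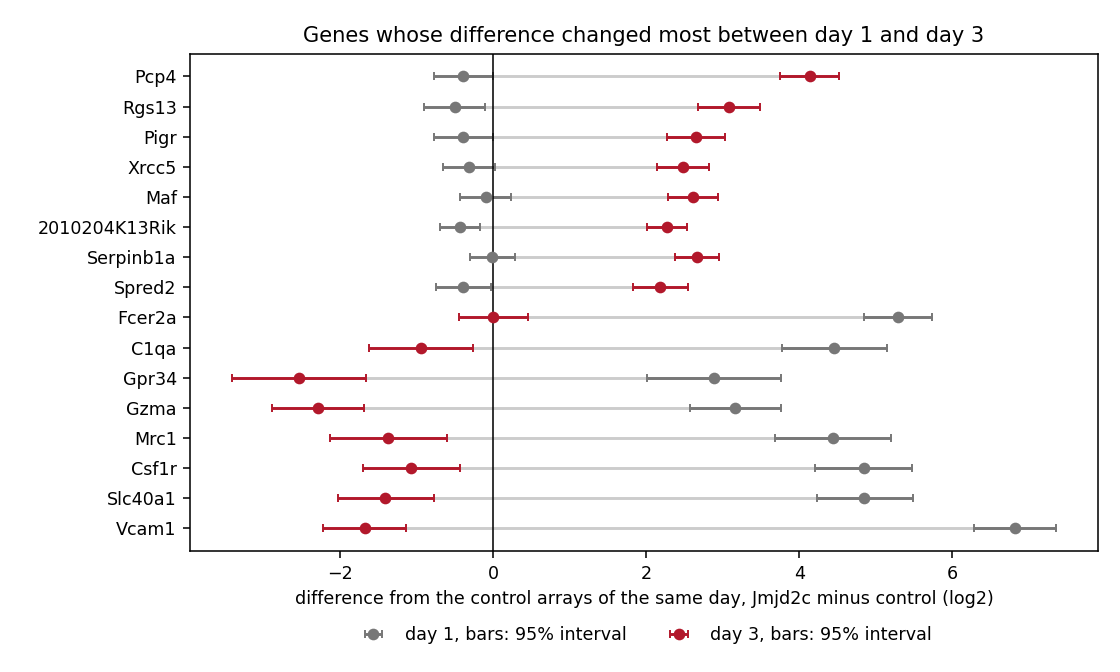
Difference from the control arrays of the same day (log2, Jmjd2c minus control) at day 1 (grey) and day 3 (red), with 95% intervals of the limma fit, for the 8 genes that shifted most in each direction. The upper 8 lie near 0 at day 1 and above 2 at day 3, and the lower 8 lie above 2 at day 1 and at or below 0 at day 3.

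Whole lists differed between the days. Of all genes 7.57% were higher and 7.35% lower at day 1, and the change passed upward in 13.1% and downward in 9.65%. The Myc list had 1 higher and 21 lower members of 27 at day 1 (median -0.26), and the change upward passed in 27. The replication list had 0 higher and 23 lower of 28 at day 1 (median -0.39), with a change upward in 23. The mitosis list was lower on both days, in 21 of 28 at day 1 (median -0.4) and with a further fall that passed in 17. Mature B cell identity genes were higher in 17 of 21 at day 1 (median 0.93) and macrophage markers in 15 of 18 (median 1.95), with downward changes in 16 of each list.

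In view of the correlations above, the Jmjd2c arrays of day 3 were also set against the control arrays of day 1, whose group means do not use control replicate 2 of day 3. Here 72 of 45037 probe sets passed (0.16%), 60 of them higher (0.133%) and 12 lower (0.0266%). In all 38 genes called (0.209%), the level was higher than at day 1 and lay between the means of both controls. Gzmb was higher by 2.27, S100a4 by 2 and Gbp2 by 1.77 than on the day 1 control arrays, while Mki67 differed by 0.29 and did not pass (adjusted p = 0.1). The Myc list had a median of -0.1 with 0 members past the test and the mitosis list of 0.31 with 4 higher. The count was 10 and 40 without Jmjd2c replicate 1 and 2, 8 and 12 without control replicate 1 and 2 of day 1, and 687 without control replicate 2 of day 3. Array weights gave 1575 calls and the 4 arrays fitted alone 3886.

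**Figure D5:**
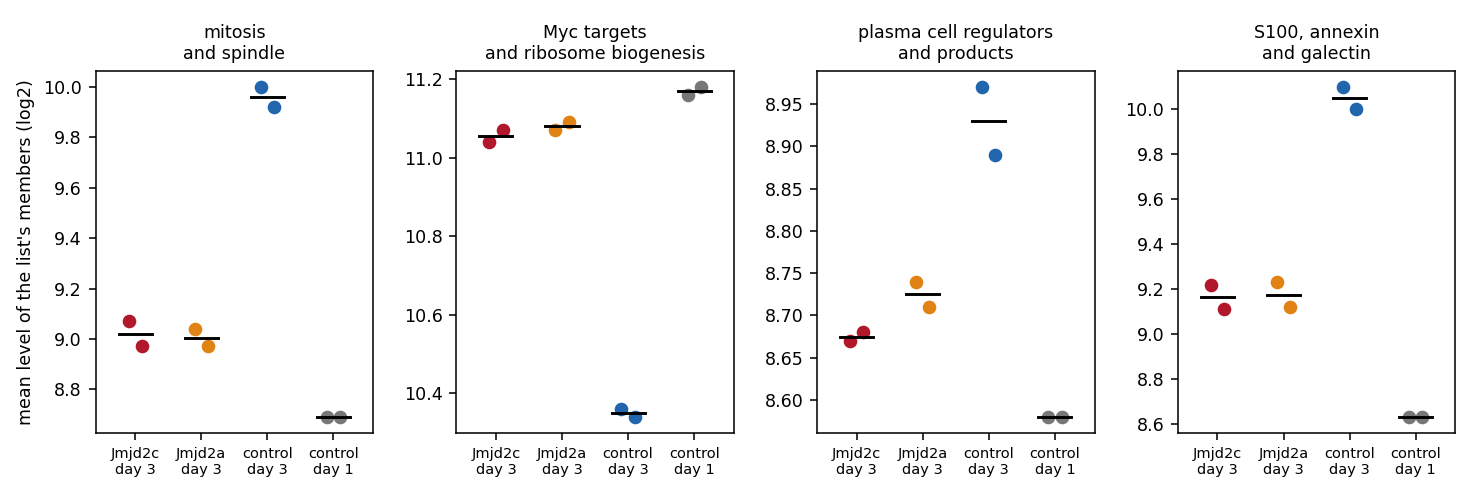
Mean log2 level of the members of 4 lists on each array of 4 groups (dots, 2 arrays a group, with the group mean as a bar, and a vertical scale of its own in each panel that does not start at 0). The Jmjd2c and Jmjd2a arrays of day 3 lie beside each other, and in all 4 lists nearer to the control arrays of day 1 than to those of day 3.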

How the data were processed

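The authors deposited log2 expression values for 45101 probe sets on 12 arrays (6 groups of 2), per the series value table. Their scale was read from the values, and the summarisation and normalization behind them are not given in the sources used here. After 64 control probe sets were left out, 45037 were tested. Of these, 34945 named 1 gene, 932 several and 9160 none in the platform annotation. Each gene was read from the probe set with the highest mean (18193 genes, 0 symbols updated through RefSeq of GRCm38.p6). One model with 6 group means was fitted with limma 3.58.1 in R 4.3.3 with a trended prior (6 residual and 5.85 prior degrees of freedom), with Benjamini-Hochberg adjustment across the probe sets of each comparison. Standard errors and 95% intervals come from that fit, which holds 1 spread per probe set for all groups. Where 1 array is left out, its group of 2 adds nothing to that spread. Arrays carry no read depth, so their number limits the precision.

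The groups follow the array titles. The labels speak of siRNA in the treatment text and of shRNA virus in the source names, and the 2 control arrays of day 3 share 1 short description but have numbered titles. The comparison and the 33 gene lists were chosen with earlier results of these data known. Named genes were Kdm4c, Kdm4a and 15 measured genes of the question, the 12 largest rises and falls that passed with and without control replicate 2 without overlap of the groups and with the higher group above the median level of 5.22, up to 4 members of smallest p per list, and up to 8 genes each way for the change between days. For length, 17 genes that this rule selects are not named. Ptprc, Ms4a1, Cdkn2a, Hspa1a, Hsph1 and Klf2 were added after their values were seen.

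Alternatives were quantile normalization, median centring, a filter on dim probe sets, a prior without trend, array weights, the compared groups alone, an adjusted p under 0.10, a 2-fold floor, replicate number as a block, other probe sets of a gene, and leaving out each array. Tested on simulated data of the day 3 comparison with 200 changed probe sets per fold size among 45037, 47% of changes of 1.5-fold were called, 86.5% at 2-fold and 99.5% at 4-fold, beside 28 false calls. The simulated arrays shared 1 spread per probe set in all groups. The real control group of day 3 had a wider one (pooled replicate SD 0.259, against 0.117 for the Jmjd2c group), which these rates do not cover. Promoter sequences are RefSeq's. Plots used matplotlib 3.10.9 under Python 3.11.15.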

Additional observations from a re-analysis of the deposited data

Results flagged for a closer look

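The difference between the Jmjd2c and control arrays was not the same at day 1 and day 3 in 7879 probe sets by the test of the change itself (limma, day 3 difference minus day 1 difference, adjusted p under 0.05). Of the 133 genes named, 123 passed that test, against 22.8% of all genes. Many of them were named for their day 3 difference or for this change, so the higher share follows from how they were chosen. Among genes of B cell and plasma cell fate, growth, cell division and chromatin, the change was 0.6 for Bach2, 0.68 for Myc, 1.58 for Sdc1, 1.2 for Ccnd2 and 0.63 for Wdr5. It was -0.7 for Irf4, -0.75 for Xbp1, -1.9 for Jchain, -1.48 for Cdkn1b, -0.66 for Mki67 and -0.4 for Kdm4a. The largest upward changes beside Pcp4 (4.53) were 3.58 for Rgs13, 3.04 for Pigr, 2.8 for Xrcc5, 2.71 for Maf, 2.69 for 2010204K13Rik, 2.68 for Serpinb1a and 2.56 for Spred2. The largest downward changes beside Vcam1 (-8.5) were -6.26 for Slc40a1, -5.91 for Csf1r, -5.81 for Mrc1, -5.45 for Gzma, -5.43 for Gpr34, -5.41 for C1qa and -5.29 for Fcer2a. All values are log2. Groups of 2 arrays are too small for a test of single outlying arrays.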

How the results depend on the processing

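The 6452 calls of the day 3 comparison became 4114 with array weights, 2514 with the 4 arrays alone and 631 at 2-fold or more, and lay between 2941 and 12578 when 1 array was left out. Higher calls made up 64.8% of them as deposited and 58.4% with quantile normalization. Array weights came out equal within each group, at 0.278 for both control arrays of day 3, so they could not lower control replicate 2 alone. Replicate number as a block gave 6591 calls. The numbers were not taken to pair the arrays, since the correlation of replicate differences was -0.073 between the Jmjd2c and control arrays of day 3 and over 0.1 in 1 of 15 pairs of groups. The 0 calls between the Jmjd2c and Jmjd2a arrays became 26 with array weights, 1086 with the 4 arrays alone and between 0 and 66 with 1 array left out (2571 at an unadjusted p under 0.05). The 7879 changes between days became 2359 at 2-fold or more, 7985 with the replicate block and 5362 to 12912 with 1 array left out. The 72 calls against the day 1 controls became 1575 with array weights, 3886 with the 4 arrays alone, 27 without the trend, 110 with quantile normalization, 130 at an adjusted p under 0.10, 30 at 2-fold or more, 92 with the replicate block, and 8 to 687 with 1 array left out.

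Among the 133 genes named, the call and direction were as reported for 128 with quantile normalization, 133 with median centring and 132 with the replicate block. Quantile normalization turned Kdm4c to -0.07, Pax5 to -0.07 and Fcer2a to -0.01. With 1 array left out, Kdm4c lay between -0.17 and 0.23, Prdm1 between -0.41 and 0.06, Pax5 between -0.12 and 0.13 and Fcer2a between -0.21 and 0.21, and none of these 4 genes had passed. Agreement was poorer among probe sets of the same gene. By the median of the other probe sets, 47 named genes were the same, 19 weaker, 2 stronger and 5 reversed. The reversed genes were Kdm4a (0.1), Pax5 (-0.39), Spred2 (-0.0), Nr4a3 (-0.06) and Prf1 (0.3). The causes were not tested. The number of arrays limits the precision.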
